A study of Arabidopsis thaliana with 24 samples.

Results

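Roots of Arabidopsis thaliana Col-0 seedlings on 60 mM KNO3 that spent their last day on 2.5 nM isoxaben were compared with roots on 60 mM KNO3 given a mock transfer. These were 3 isoxaben libraries and 3 mock libraries, 6 of the 24 libraries of the series, chosen by their KNO3 level, treatment and exposure as labelled and not by any measured value. In both groups seedlings grew on a polyester mesh on vertical agar plates and were moved on day 5 to fresh medium with the same KNO3 level, so the mock roots had been handled and transferred too, and all roots were harvested on day 6. The solvent of the mock medium was not given in the sources used here. All 24 libraries entered a common fit, so the others also shaped the low-count filter, the scaling and the spread used in each test. Other libraries served further to test where this response differed. These were a 6 mM KNO3 pair (isoxaben and mock) with the same transfer on day 5, and a 60 mM KNO3 pair (isoxaben and mock). The latter grew on the treatment medium throughout, called long-term here. A long-term 6 mM KNO3 pair (isoxaben and mock) entered the common fit only. The 60 mM and 6 mM media differ in nitrate, potassium and ionic strength at once, which cannot be told apart. Polyadenylated RNA of whole roots was sequenced.

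Isoxaben is a herbicide that acts on the primary-wall cellulose synthase complexes, which spin cellulose microfibrils at the plasma membrane of growing cells. When cellulose synthesis is impaired, plant cells are known to sense the weakened wall through receptor kinases and mechanosensitive channels, to make jasmonate, ethylene and reactive oxygen species, and to deposit lignin outside the cells that normally carry it. In the root, lignin is also laid down in the Casparian strip, a band in the endodermal wall that seals the path between cells.

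The 6 libraries held 19852813 to 20519913 counts, close to equal depth. Levels are given in CPM, counts scaled to a common library size by trimmed mean of M-values (TMM). A gene with 3 counts stood at 0.143 to 0.15 CPM depending on the library, a floor that covers counting error only. Of 32833 genes listed, 20546 passed the filter on low counts and are the genes tested. Genes were called at an adjusted p under 0.05 in edgeR's quasi-likelihood test with Benjamini-Hochberg adjustment over all genes tested; every adjusted p below is from this test. The labels do not say whether replicates came from separate cultures, so p-values measure only the spread between these samples. The first principal component of the 6 libraries held 59.1% of the variance and separated the groups, at 27.6 to 36 for isoxaben and -34.1 to -27 for mock. On the second component, with 13.9%, mock replicate 3 stood at -27 and isoxaben replicate 1 at -12, while the other 4 libraries stood between 2.29 and 16.2. The same 2 libraries had the lowest sums over 20 photosynthesis genes, a check for shoot RNA: 476, 682 and 727 CPM in isoxaben roots against 809, 727 and 379 CPM in mock roots. None of these 20 genes was called. Root markers were present in both groups, among them SCR and MYB36 of the endodermis, PLT1 of the meristem and RSL4 of root hairs.

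After 1 day on isoxaben 2659 genes differed, 12.9% of those tested. Of these, 1511 were higher (7.35%) and 1148 lower (5.59%) in isoxaben roots. The rises were larger and came from transcripts scarcer in mock roots: their median log2 fold change was 0.70 and their median mock level 8.33 CPM. For the genes that fell these medians were -0.44 and 32.5 CPM, and over all genes tested they were -0.003 and 16.6 CPM. In isoxaben roots the median levels lay closer, at 14.5 CPM for the genes that rose and 23.7 CPM for those that fell. A change of at least 1 on the log2 scale was seen in 510 genes that rose (2.48%) and 161 that fell (0.784%), and a change of at least 3 in 86 and 4 genes. The ranges of the 3 libraries lay apart in 1467 of the 1511 and 1094 of the 1148, where over all genes tested 13.0% had isoxaben wholly above mock and 11.9% wholly below. Below 1 CPM in mock roots 257 of 1690 genes rose and 18 fell, whereas at 100 CPM and above 93 of 2117 rose and 228 fell. Genes that low in mock roots could pass the filter through a higher level in another group, and they have little room to fall. In 45 of the 1511 genes that rose every mock library had at most 3 counts. The bins also use the mock level that the fold is taken over, so part of this contrast was fixed in advance. The 1511 genes that rose summed to 70722, 67892 and 70067 CPM in isoxaben roots and 44660, 45849 and 46829 CPM in mock roots. The 1148 that fell summed to 68523, 64483 and 62324 CPM in isoxaben roots and 83915, 86637 and 88895 CPM in mock roots. Among transcripts encoded in the organelles, none of 22 mitochondrial and 35 plastid genes was called. This covers only what was captured as polyadenylated RNA, so organelle transcript levels in general were not measured. Without mock replicate 3 the count was 2215, of which 2038 were shared with the 2659.

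**Figure D1:**
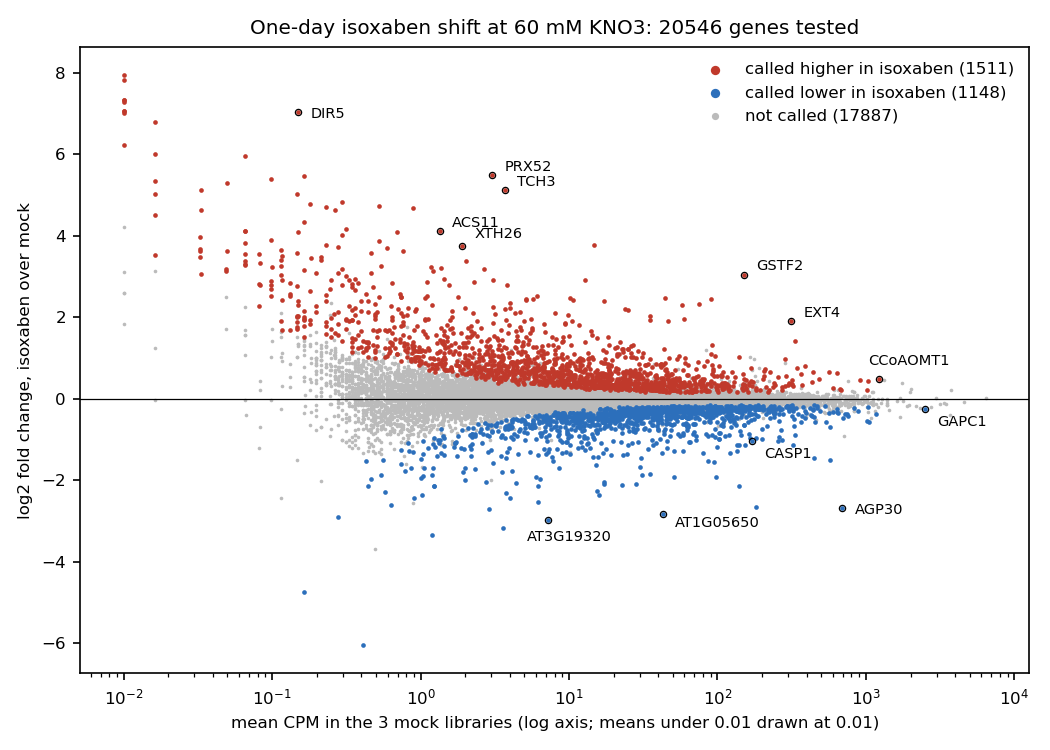
Log2 fold change of isoxaben over mock (vertical axis) against the mean CPM in mock roots (logarithmic horizontal axis) for all 20546 genes tested, with the 1511 genes that rose and the 1148 that fell coloured and 14 genes drawn at 0.01 CPM. The large rises sit at the left, among genes of low mock level, and the falls spread less far from 0 and lie further right.

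The largest rises were of genes close to silent in mock roots, and they included defence, calcium and ethylene genes. Here and below, the 15 largest rises and falls are taken among called genes that reach 5 CPM in either group and whose ranges do not overlap. DIR5 (AT1G64160), a dirigent protein of the family that steers the coupling of lignan and lignin precursors, had 26.9, 18.7 and 15.8 CPM in isoxaben roots against 0, 0.2 and 0.247 CPM in mock roots (log2 fold change 7.04, SE 0.57, adjusted p = 5.03e-08). The peroxidase gene PRX52 (AT5G05340) had 146, 123 and 142 CPM in isoxaben roots and 1.13, 0.6 and 7.4 CPM in mock roots (log2 fold change 5.49, SE 0.554, adjusted p = 1.7e-06). Mock replicate 3 was the high one for PRX52, and without it the log2 fold change was 7.29.

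TCH3 (AT2G41100), a touch-induced calmodulin-like calcium sensor, had 115, 135 and 139 CPM in isoxaben roots and 3.89, 3.6 and 3.6 CPM in mock roots. Its log2 fold change of 5.13 (SE 0.156) had the smallest adjusted p of all genes, 1.13e-15. The next smallest belonged to ACS11 (AT4G08040), whose enzyme makes the ethylene precursor ACC: it had 23.4, 23.5 and 24.1 CPM in isoxaben roots and 1.38, 1 and 1.68 CPM in mock roots (log2 fold change 4.12, SE 0.18, adjusted p = 6.39e-15). MYB15 (AT3G23250), a transcription factor known to switch on lignin genes in immunity, had 13.4, 11.7 and 17.5 CPM in isoxaben roots against 0.345, 0.5 and 0.74 CPM in mock roots (log2 fold change 4.73, SE 0.245, adjusted p = 1.09e-13). In all 3 genes every isoxaben library lay many times above every mock library.

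The other large rises covered several kinds of protein. RLP38, a receptor-like protein gene, had a log2 fold change of 5.46 (adjusted p = 6.45e-09). Signalling was represented by the EF-hand calcium-binding gene AT5G39670 (log2 fold change 4.70) and the phloem protein gene PP2-B13 (4.78). Enzymes were represented by the beta-glucosidase gene BGLU27 (5.03), CYP706A2 of the cytochrome P450 family (4.68), the peroxidase gene AT5G64110 (4.64), the endonuclease gene ENDO2 (4.17) and the glutamate decarboxylase gene GAD4 (4.10). AT1G65500 (4.84) and AT1G21520 (3.88) encode uncharacterized proteins. The largest adjusted p among these 10 was 1.74e-06, of GAD4. Mock replicate 3 was the highest mock library in BGLU27, AT1G65500, ENDO2 and GAD4, and without it the log2 fold change was 7.34 for BGLU27, 6.36 for AT1G65500, 5.00 for ENDO2 and 6.06 for GAD4. For AT5G39670 mock replicate 1 was the high one, and without it the value was 5.56. In CYP706A2, 60.4% of the 50-base windows of its exons recur elsewhere in the genome, so its reads may be shared with related genes. TCH3, PP2-B13, AT5G39670, ENDO2 and GAD4 overlap a gene on the opposite strand; whether counting used the strand is not given in the sources used here.

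Among the largest falls, genes of pectin, arabinogalactan and wall-protein families stood beside genes for transport and wax synthesis. AT3G19320, which encodes a leucine-rich repeat protein and overlaps a gene on the opposite strand, had 1.35, 0.866 and 0.525 CPM in isoxaben roots against 5.32, 6.9 and 9.37 CPM in mock roots (log2 fold change -2.98, SE 0.258, adjusted p = 3.71e-09). AT1G05650, annotated as a pectin lyase-like protein, had 6.53, 6.26 and 5.2 CPM in isoxaben roots against 35.1, 44.2 and 48.6 CPM in mock roots (log2 fold change -2.83, SE 0.132, adjusted p = 9.66e-14). In both genes every isoxaben library lay below every mock library, which the selection required. AGP30 (AT2G33790), a root arabinogalactan protein, was the most abundant of the 15: 120, 110 and 95.4 CPM in isoxaben roots against 602, 551 and 925 CPM in mock roots (log2 fold change -2.67, SE 0.171, adjusted p = 1.92e-09).

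Pectin lyase-like genes recurred in this group. AT2G43890, also annotated as pectin lyase-like, had a log2 fold change of -2.27 (adjusted p = 5.81e-12), and the pectin lyase-like gene AT1G05660, outside the 15, one of -1.91 (adjusted p = 1.47e-12). AT4G25250, annotated to the plant invertase/pectin methylesterase inhibitor superfamily, had one of -1.91 (adjusted p = 1.68e-08). That annotation does not say which enzyme it inhibits. CER4 (AT4G33790), an alcohol-forming fatty acyl-CoA reductase of wax synthesis, fell to 7.33, 4.38 and 4.05 CPM in isoxaben roots, against 19.9, 23.8 and 24.5 CPM in mock roots (log2 fold change -2.12, SE 0.167, adjusted p = 3.41e-09). The peroxidase-family gene AT5G24070 had the smallest adjusted p of the falls, 1.39e-14: 4.09, 4.14 and 3.86 CPM in isoxaben roots against 16.2, 16.5 and 18.5 CPM in mock roots (log2 fold change -2.08, SE 0.0954).

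The rest of the 15 were the LEA-like gene AT3G19430 (log2 fold change -2.65), the amino acid transporter family gene AT3G54830 (-2.53), GRI (-2.36), AT5G46900 of the lipid-transfer protein superfamily (-2.14), AT5G65340 (-2.13), XTH21 (-2.10), the cellulose synthase-like gene ATCSLB05 (-2.04) and CASP5 (-1.97). AT5G46900 was spread widely, at 54.8, 18.4 and 21.8 CPM in isoxaben roots and 119, 98.3 and 200 CPM in mock roots. Its adjusted p was 0.000101 here, 0.129 when only the 6 libraries were fitted, and between 1.91e-09 and 0.129 over the alternatives tried; without isoxaben replicate 1 its log2 fold change was -2.79. In AT5G46900 and ATCSLB05, 22.5% and 17.1% of exon windows recur elsewhere. GRI, AT2G43890 and CASP5 overlap a gene on the opposite strand.

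**Figure D2:**
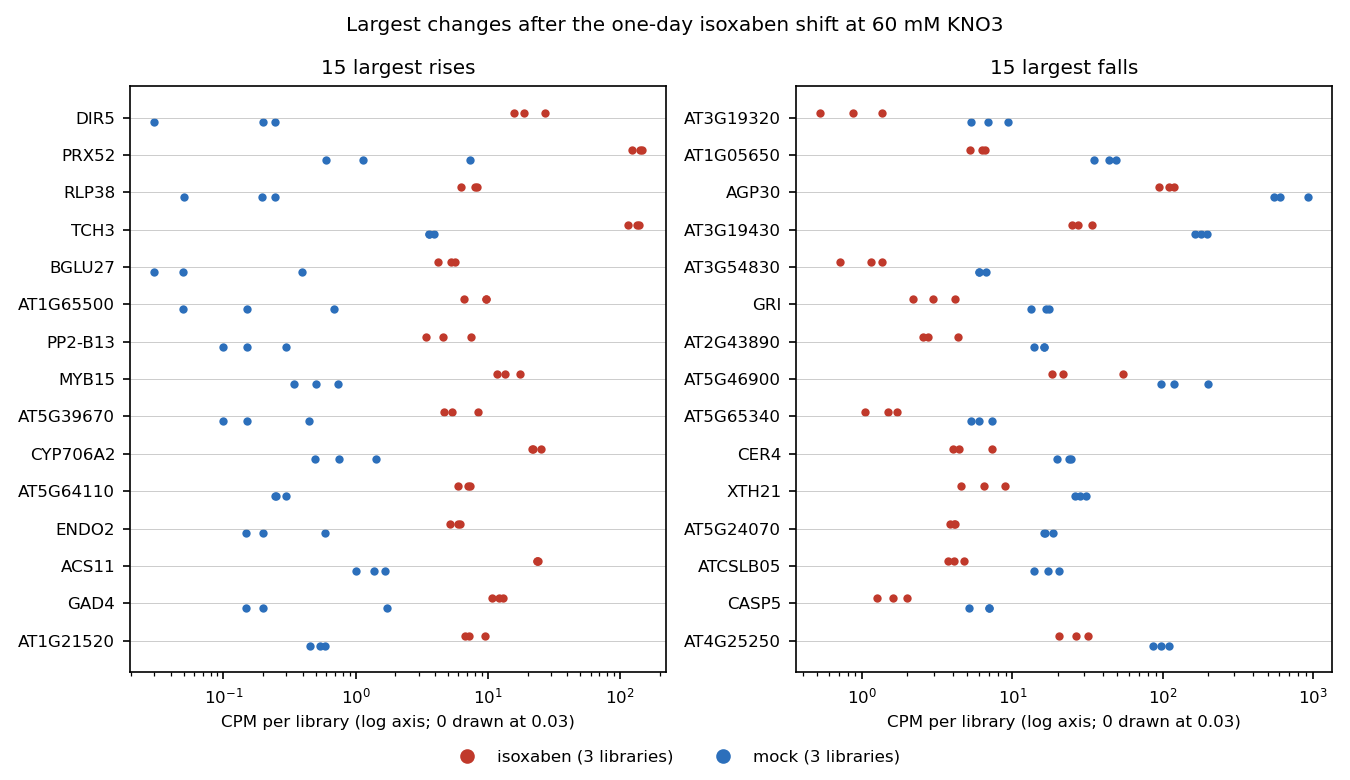
CPM on a logarithmic axis in each isoxaben library and each mock library for the 15 largest rises and the 15 largest falls. In all 30 genes the 3 isoxaben points lie on 1 side of the 3 mock points, because ranges that do not overlap were a condition of the selection. Mock replicate 3 is the mock point nearest to the isoxaben points in genes such as PRX52 (7.4 CPM) and GAD4 (1.73 CPM).

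By difference in mean CPM the 5 called genes with the largest gains were, in order, GSTF2, EXT4, AT5G26260, CCoAOMT1 and ERD5. GSTF2 (AT4G02520), a glutathione S-transferase that conjugates glutathione to small molecules, had 1241, 1274 and 1228 CPM in isoxaben roots and 134, 109 and 209 CPM in mock roots (log2 fold change 3.05, SE 0.258, adjusted p = 1.73e-07). EXT4 (AT1G76930), an extensin that cross-links in the wall, had 1051, 995 and 1483 CPM in isoxaben roots and 212, 262 and 465 CPM in mock roots (log2 fold change 1.91, SE 0.41, adjusted p = 0.00376). Its call was lost when only the 6 libraries were fitted (adjusted p = 0.0555, with 3.38e-05 to 0.0555 over the alternatives). The groups did not overlap in either gene; GSTF2 overlaps a gene on the opposite strand and 12.5% of EXT4 windows recur elsewhere.

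AT5G26260, of the TRAF-like family, had 1017, 809 and 853 CPM in isoxaben roots and 360, 298 and 339 CPM in mock roots (log2 fold change 1.43, SE 0.109, adjusted p = 1.14e-09). Genes of proline breakdown and synthesis moved in opposite directions. ERD5 (AT3G30775), proline dehydrogenase, which starts proline breakdown, had 395, 561 and 538 CPM in isoxaben roots and 106, 86.8 and 79.3 CPM in mock roots (log2 fold change 2.46, SE 0.129, adjusted p = 1.48e-11). P5CS1 (AT2G39800), the rate-limiting enzyme of proline synthesis, fell to 53.2, 47.2 and 51.6 CPM in isoxaben roots, against 94.2, 96.6 and 98 CPM in mock roots (log2 fold change -0.93, SE 0.0768, adjusted p = 9.76e-10); it overlaps a gene on the opposite strand.

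By p-value, the other leading genes were AT1G14960, described with the KNO3 levels below, the chitinase-family gene AT2G43620 (log2 fold change 3.18) and the aminotransferase gene AGT2 (1.32), both with an adjusted p of 4.69e-14, and among the falls AT5G60520 (-1.23, adjusted p = 2.41e-12), which overlaps a gene on the opposite strand.

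By difference in mean CPM the called genes with the largest losses after AGP30 were, in order, GAPC1, AT5G54370, SAHH2 and the tonoplast water channel gene GAMMA-TIP. GAPC1, the glycolytic glyceraldehyde-3-phosphate dehydrogenase, averaged 2085 ± 181 CPM in isoxaben roots and 2503 ± 112 CPM in mock roots (SD, n = 3 each), a log2 fold change of -0.26 (edgeR adjusted p = 0.0268). This call was lost without isoxaben replicate 3 (0.186), mock replicate 2 (0.112) or mock replicate 3 (0.0643) and in the fit of only 6 libraries (0.0816). SAHH2, of the methyl cycle, fell to 707 ± 91.1 CPM in isoxaben roots, against 1052 ± 35.5 CPM in mock roots (SD, n = 3 each; log2 fold change -0.57, edgeR adjusted p = 7.12e-06). The LEA-like gene AT5G54370 fell to 203, 199 and 208 CPM in isoxaben roots, against 547, 601 and 562 CPM in mock roots (log2 fold change -1.49, edgeR adjusted p = 6.12e-09).

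Over 22 gene lists the responses differed widely. Counts and medians below describe each list beside the background of 7.35% higher and 5.59% lower over all genes tested, whose median log2 fold change was -0.003. The calls in the immune, ethylene, jasmonate and root hair lists were mostly rises, those in the Casparian strip list were falls, and DNA replication had no call. Of the list genes named below, 4CL1, AT4G26010, CCR2, CDKB2;2, CESA1, CESA4, DELTA-TIP, GSO1, IRX1, IRX3, JAZ10, LAC11, LAC17, MPK3, MYC2, RWP1, SARD1, TCH2, WRKY33, WRKY40, WRKY53 and XTH15 also overlap a gene on the opposite strand.

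**Figure D3:**
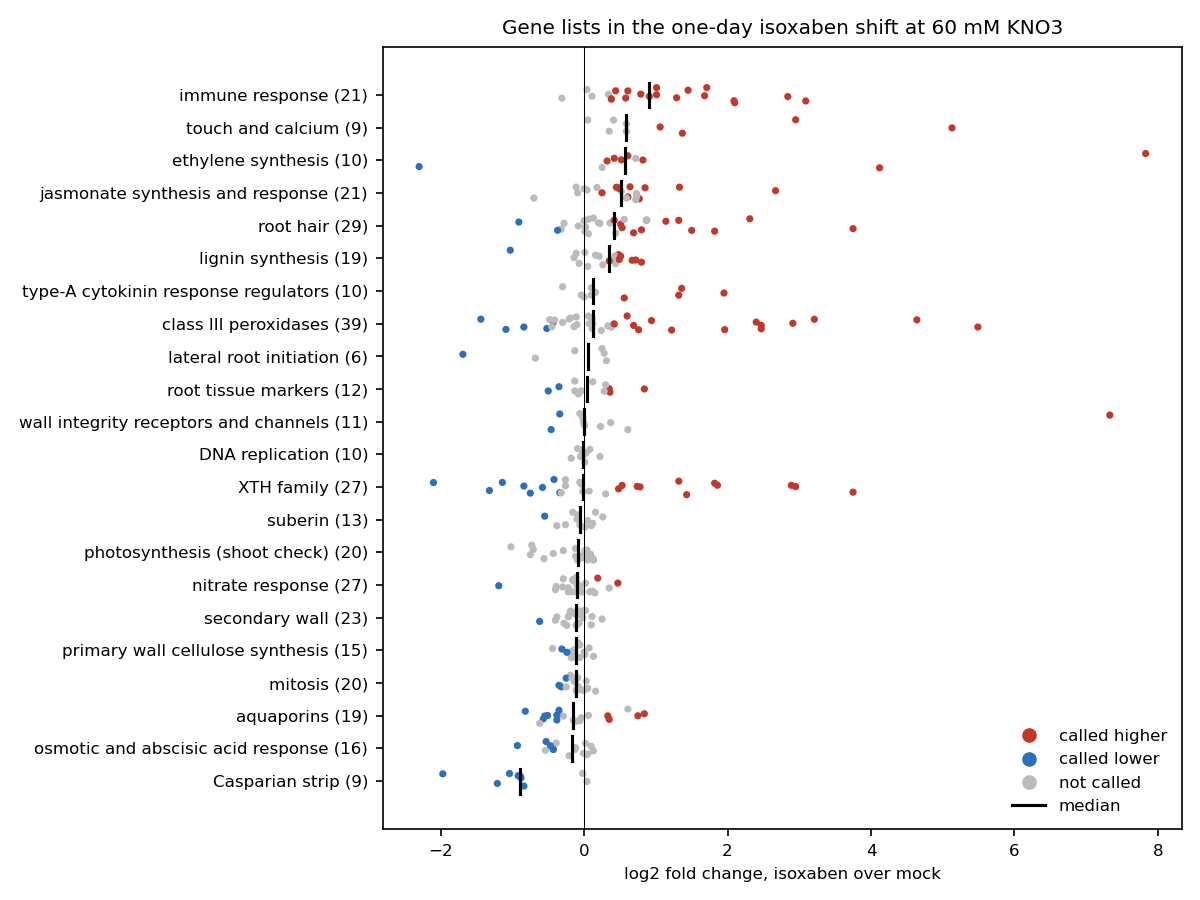
Log2 fold change of isoxaben over mock for every tested member of the 22 gene lists, with called genes coloured and each list's median marked. The immune list has its median at 0.91 and the Casparian strip list at -0.89, while the peroxidase and XTH lists reach far in both directions around medians of 0.12 and -0.02.

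The genes for the isoxaben-sensitive machinery itself differed little. Of 15 primary-wall cellulose synthesis genes 0 rose and 2 fell, at a median log2 fold change of -0.11. CESA1, a catalytic subunit present in all primary-wall complexes, had 753, 650 and 682 CPM in isoxaben roots and 738, 755 and 848 CPM in mock roots (log2 fold change -0.17, SE 0.074, adjusted p = 0.166), and CESA6 showed a log2 difference of -0.13 (SE 0.0669, adjusted p = 0.246). The groups overlapped in both. AT5G42860, known as CC2 of the companion proteins that tie the complexes to microtubules, fell to 90.6, 83.1 and 76.1 CPM in isoxaben roots, against 102, 103 and 106 CPM in mock roots (log2 fold change -0.31, SE 0.0701, adjusted p = 0.00218). CESA5 was also called (log2 fold change -0.24, adjusted p = 0.0458), but lost the call without isoxaben replicate 2 (0.196) or 3 (0.224) or mock replicate 2 (0.0547) or 3 (0.354), with a range of adjusted p up to 0.354 over the alternatives.

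Secondary-wall genes of the xylem were also close to 0. Of 23, which include the cellulose synthases IRX1, IRX3 and CESA4, the xylan enzymes IRX9 and IRX14 and the regulator VND7, 0 rose and 1 fell, and the median log2 fold change was -0.11. The gene that fell was FLA12, a fasciclin-like arabinogalactan protein of fibre and vessel walls, with 10.8, 9.77 and 9.78 CPM in isoxaben roots against 15.4, 11.7 and 19.3 CPM in mock roots (log2 fold change -0.62, SE 0.145, adjusted p = 0.004). In the long-term roots at 60 mM KNO3, where 15.8% of all genes were called lower, 22 of the 23 were lower, with a median of -0.91. The difference between the exposures was called for 21 of the 23 (5.86% of all genes tested were called in that direction and 5.68% in the other).

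The Casparian strip genes fell together. Of 9 genes 7 fell and 0 rose, at a median log2 fold change of -0.89, and 7 were called lower under every alternative tried. CASP1 (AT2G36100), a membrane scaffold of the strip, had 97.4, 66.6 and 84.7 CPM in isoxaben roots and 161, 159 and 192 CPM in mock roots (log2 fold change -1.04, SE 0.146, adjusted p = 3.95e-05). CASP4 (AT5G06200) had 22.4, 15.3 and 22.2 CPM in isoxaben roots and 38.2, 46.6 and 53.6 CPM in mock roots (log2 fold change -1.21, SE 0.148, adjusted p = 5.04e-06). In all 7 genes the groups did not overlap.

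CASP2 had a log2 fold change of -0.88, ESB1, the dirigent protein that places the strip's lignin, -0.89, and PER64, the peroxidase that polymerises it, -0.84 (adjusted p = 0.00483 for PER64 and smaller for the other two). CASP5 fell most, to 1.6, 1.25 and 2 CPM in isoxaben roots, against 6.99, 5.15 and 6.95 CPM in mock roots (log2 fold change -1.97, SE 0.237, adjusted p = 8.54e-07). The peroxidase gene AT5G66390, which is on the lignin list, was at 157, 100 and 121 CPM in isoxaben roots against 230, 261 and 277 CPM in mock roots (log2 fold change -1.03, SE 0.189, adjusted p = 0.000942). CASP1, CASP5, ESB1 and PER64 overlap a gene on the opposite strand.

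Regulators of the endodermis were not called. MYB36, the transcription factor that drives CASP genes, had 20, 16.3 and 20.2 CPM in isoxaben roots and 17.2, 19.9 and 20.3 CPM in mock roots (log2 fold change -0.02, SE 0.0984, adjusted p = 0.938). The endodermal gene SCR showed a log2 difference of -0.08 (SE 0.111, adjusted p = 0.755), and GSO1, the receptor kinase that monitors strip integrity, one of 0.04 (SE 0.166, adjusted p = 0.936). In RNA of whole roots, fewer cells with a forming strip and less transcript per cell cannot be told apart.

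Suberin genes, which belong to a later stage of the endodermis, gave 1 call. Of 13 genes 1 fell and 0 rose, at a median log2 fold change of -0.06. CYP86A1, which makes suberin monomers, had 338, 286 and 287 CPM in isoxaben roots and 217, 322 and 299 CPM in mock roots (log2 fold change 0.12, SE 0.156, adjusted p = 0.734), and the groups overlapped. The gene called was RWP1, a feruloyl transferase of suberin (log2 fold change -0.55, adjusted p = 0.011); its call was lost without isoxaben replicate 2 (0.0655) or 3 (0.0598) or mock replicate 3 (0.0625). In the long-term roots at 60 mM 12 of the 13 were lower, with a median of -1.17, and the difference between exposures was called for 10.

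**Figure D4:**
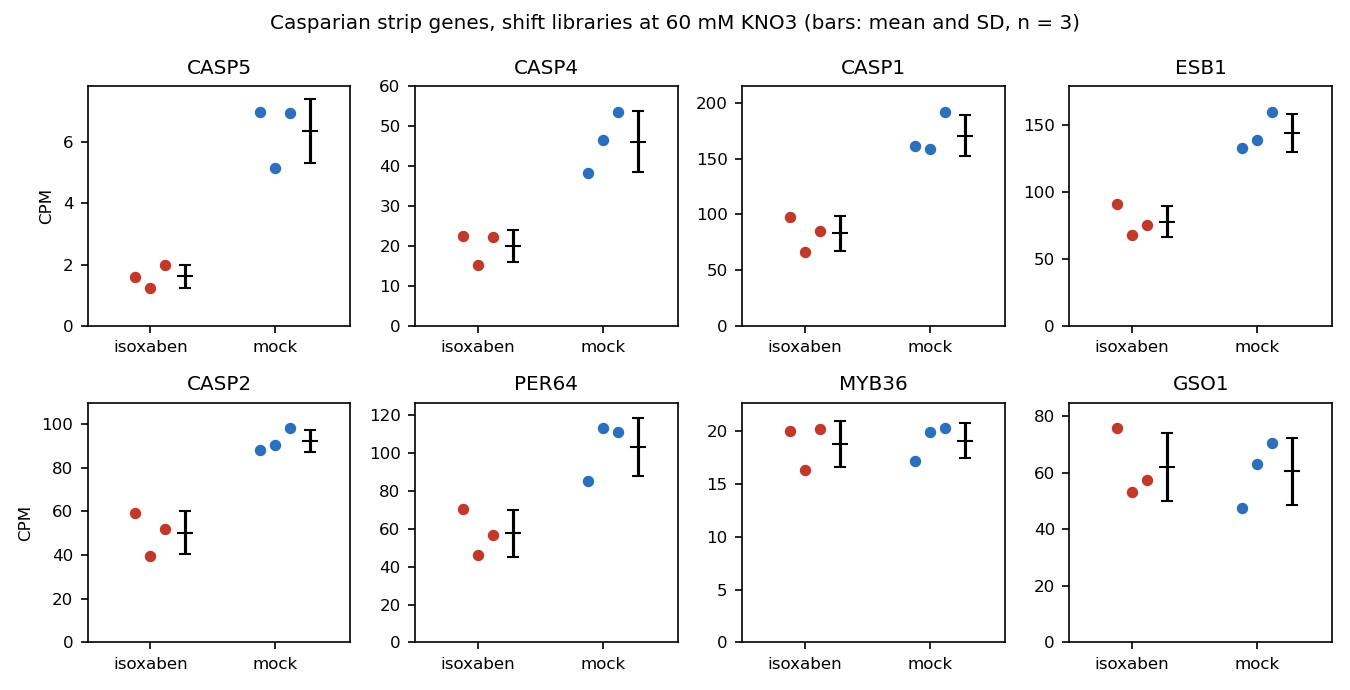
CPM in each library of 8 Casparian strip genes, isoxaben left of mock, for the day-5 transfer at 60 mM KNO3, with mean and SD (n = 3) drawn as bars. The isoxaben points of 6 genes lie below all mock points, for CASP1 between 66.6 and 97.4 CPM against 159 to 192 CPM in mock roots, while MYB36 and GSO1 overlap.

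Class III peroxidases, secreted enzymes that oxidise phenolics and make or use hydrogen peroxide in the wall, were divided. Of 39 genes on the list 14 rose and 5 fell, at a median log2 fold change of 0.12. AT5G24070 and AT5G66390, which fell as described above, are not on this list. Among all 54 tested genes annotated as peroxidase superfamily proteins, 18 rose (33.3%) and 8 fell (14.8%). Besides PRX52 and AT5G64110, PA2 (AT5G06720) had 14, 10.7 and 14 CPM in isoxaben roots and 0.837, 1.05 and 2.27 CPM in mock roots (log2 fold change 3.21, SE 0.326, adjusted p = 4.49e-07). AT5G64120, known as PRX71, had 253, 246 and 241 CPM in isoxaben roots and 38.9, 40.4 and 53.9 CPM in mock roots (log2 fold change 2.47, SE 0.154, adjusted p = 9.76e-10). AT4G36430 had 246, 209 and 239 CPM in isoxaben roots and 50, 53.6 and 75.2 CPM in mock roots (log2 fold change 1.96, SE 0.2, adjusted p = 1.6e-06).

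Within the list the largest fall on the log2 scale was that of AT3G01190, at 191, 168 and 141 CPM in isoxaben roots and 380, 494 and 477 CPM in mock roots (log2 fold change -1.44, SE 0.107, adjusted p = 7.69e-10). The others were AT5G15180 (-1.09), PER64 (-0.84), AT2G18980 (-0.52) and RCI3 (-0.43). Summed over the list, peroxidase transcripts were at 9592, 8934 and 8804 CPM in isoxaben roots and 7841, 9178 and 8808 CPM in mock roots, so the totals overlapped although 19 members had changed. Among the 14, PRXCA lost its call without isoxaben replicate 2 (0.107) or mock replicate 1 (0.0982) or 2 (0.0899), with a log2 fold change of 2.40 that was 4.48 without mock replicate 3, and AT5G64100 without mock replicate 1 (0.0643) or 3 (0.0609). AT4G26010, whose groups overlapped, lost it without isoxaben replicate 1 (0.161) or 3 (0.144) or mock replicate 1 (0.191) or 2 (0.119). AT4G26010 also lost it with only the 6 libraries (0.206), only the 12 transferred libraries (0.185) or no low-count filter (0.074). Leaving out each of the 6 libraries in turn left 11 to 15 called higher and 5 called lower.

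The lignin pathway rose in part. Of 19 genes 7 rose and 1 fell, at a median log2 fold change of 0.35. The ligase gene 4CL1 (AT1G51680), which activates cinnamic acids, had 758, 641 and 642 CPM in isoxaben roots and 369, 361 and 441 CPM in mock roots (log2 fold change 0.80, SE 0.163, adjusted p = 0.00197). LysoPL2, known as caffeoyl shikimate esterase, had 189, 167 and 168 CPM in isoxaben roots and 107, 107 and 115 CPM in mock roots (log2 fold change 0.67, SE 0.0655, adjusted p = 1.57e-08). CCoAOMT1, a methyltransferase of the lignin pathway, had 1749, 1681 and 1712 CPM in isoxaben roots and 1236, 1186 and 1255 CPM in mock roots (log2 fold change 0.48, SE 0.0581, adjusted p = 5.67e-07).

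PAL4 (log2 fold change 0.72), CCR2 (0.51) and CAD5 (0.35) also rose, as did OMT1 (0.49, adjusted p = 0.0324), which lost its call without isoxaben replicate 1 (0.145) or 2 (0.0649) or mock replicate 1 (0.107), 2 (0.0907) or 3 (0.0595). Of the entry enzymes, 4CL1 and PAL4 were called, whereas PAL1 and C4H were not. PAL1 had 1025, 927 and 826 CPM in isoxaben roots and 767, 818 and 897 CPM in mock roots (log2 fold change 0.16, SE 0.115, adjusted p = 0.461), and C4H had a log2 fold change of 0.05 (adjusted p = 0.805). PAL2 (log2 fold change 0.44, adjusted p = 0.0953) and 4CL2 (0.38, adjusted p = 0.0516) were not called either, though their groups did not overlap. The laccases LAC11 and LAC17, which polymerise lignin in vessels, had log2 fold changes of -0.14 and -0.07 (adjusted p = 0.198 and 0.684).

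Xyloglucan endotransglucosylase/hydrolases (XTHs), which cut and rejoin the hemicellulose between microfibrils, changed in 19 of 27 genes, the direction depending on the gene. Of these, 11 rose and 8 fell, and the median log2 fold change was -0.02. XTH26 had 26.7, 22.6 and 27.7 CPM in isoxaben roots and 1.82, 2.05 and 1.82 CPM in mock roots (log2 fold change 3.75, SE 0.257, adjusted p = 1.92e-09). TCH4, the touch-induced XTH22, had 13.1, 9.43 and 11.3 CPM in isoxaben roots and 1.62, 1.5 and 1.23 CPM in mock roots (log2 fold change 2.95, SE 0.183, adjusted p = 3.97e-12). XTR6 (1.86), XTH13 (1.82), XTH24 (1.43), XTH12 (1.32), XTH20 (0.74) and XTH9 (0.48) rose as well. XTH11 was also called higher (2.89), but every mock library stood at or under the floor of 3 counts. With 1 isoxaben library left out it was at least 3.74-fold to 6.22-fold higher against that floor, depending on the library. XTH33 (0.78) and XTH14 (0.53) rose too, but not without isoxaben replicate 1 (adjusted p = 0.0603 for XTH33 and 0.0624 for XTH14). XTH14 also lost its call in the fits of only the 6 libraries (0.112) and only the 12 transferred libraries (0.0865).

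XTH21 fell to 8.97, 6.45 and 4.53 CPM in isoxaben roots, against 28.4, 26 and 30.8 CPM in mock roots (log2 fold change -2.10, SE 0.157, adjusted p = 1.65e-09). XTH15 fell to 18.4, 17.9 and 14.8 CPM in isoxaben roots, against 39.5, 45.5 and 42.8 CPM in mock roots (log2 fold change -1.32, SE 0.101, adjusted p = 2.97e-10). XTH16 (-1.14), XTH8 (-0.84), XTH5 (-0.75) and XTH4 (-0.58) also fell. XTH19 (-0.42) lost its call without isoxaben replicate 2 (0.0983) or 3 (0.133) or mock replicate 1 (0.0586) or 3 (0.0738), and XTH30 (-0.34) without isoxaben replicate 2 (0.136) or mock replicate 2 (0.0581) or 3 (0.0959). Summed over the 27 genes the levels overlapped, at 1666, 1503 and 1427 CPM in isoxaben roots and 1516, 1615 and 1603 CPM in mock roots.

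Root hair genes were higher for wall proteins and the growth regulator RSL4, and lower for RSL2 and RHD2. Of 29 genes 12 rose and 2 fell, at a median log2 fold change of 0.42. Leaving out 1 library left 10 to 13 called higher, and fitting only the 6 libraries left 9. PRP1, a proline-rich wall protein of hairs, had 297, 242 and 318 CPM in isoxaben roots and 52.2, 45.8 and 74.4 CPM in mock roots (log2 fold change 2.31, SE 0.353, adjusted p = 0.000168). RSL4, a transcription factor that sets hair length, had 18.9, 15.8 and 20.7 CPM in isoxaben roots and 10.2, 9.25 and 10.7 CPM in mock roots (log2 fold change 0.87, SE 0.126, adjusted p = 1.01e-05). Its relative RSL2 fell to 7.68, 5.1 and 7.44 CPM in isoxaben roots, against 9.01, 15.2 and 13.7 CPM in mock roots (log2 fold change -0.91, SE 0.164, adjusted p = 0.000305).

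RHD2, the NADPH oxidase that feeds hair growth with superoxide, fell to 75.6, 65.6 and 68.6 CPM in isoxaben roots, against 78.8, 93 and 99.9 CPM in mock roots (log2 fold change -0.37, SE 0.0861, adjusted p = 0.00317). RHD6, which starts hair fate upstream of both RSL genes, showed a log2 difference of 0.06 (SE 0.0896, adjusted p = 0.772). The list sums were 3623, 2743 and 3383 CPM in isoxaben roots and 1796, 1988 and 2712 CPM in mock roots, so that mock replicate 3 came close to isoxaben replicate 2. In the long-term roots at 60 mM KNO3, where 16.0% of all genes were called higher, 26 of the 29 were higher, with a median of 1.25. The effect was called more negative after 1 day for 23 of the 29, against 5.68% of all genes tested.

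Receptors of wall integrity were mostly uncalled and 2 of the best known were lower. Of 11 genes tested 1 rose and 2 fell, at a median log2 fold change of 0.00. THE1, the receptor kinase known to sense impaired cellulose synthesis, fell to 52.3, 41.1 and 45.9 CPM in isoxaben roots, against 58.3, 60.9 and 71.7 CPM in mock roots (log2 fold change -0.46, SE 0.0841, adjusted p = 0.000271). Its relative HERK1, which overlaps a gene on the opposite strand, fell by 0.34 on the log2 scale (SE 0.0665, adjusted p = 0.000551). FER, another kinase of that family, had 241, 210 and 202 CPM in isoxaben roots and 194, 212 and 250 CPM in mock roots (log2 fold change -0.01, SE 0.106, adjusted p = 0.986). WAK1, a pectin-binding kinase, had 0.598, 0.529 and 1.91 CPM in isoxaben roots and 0 CPM in all mock libraries, at least 6.75-fold higher against the floor of 3 counts per library (edgeR adjusted p = 6.41e-05), with isoxaben replicate 3 the highest. Without that library the bound was at least 3.76-fold.

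Touch and calcium genes rose beyond TCH3 and TCH4. Of 9 genes 4 rose and 0 fell, at a median log2 fold change of 0.59. CML41, a calmodulin-like protein, had 3.04, 2.69 and 4.39 CPM in isoxaben roots and 1.58, 1.3 and 1.04 CPM in mock roots (log2 fold change 1.37, SE 0.276, adjusted p = 0.000735). CML38 (log2 fold change 1.06, adjusted p = 0.0111) lost its call without isoxaben replicate 3 (0.0744) or mock replicate 2 (0.0812). TCH2, despite its name from the same touch screen, had 23.3, 16.9 and 13.5 CPM in isoxaben roots and 13, 14.2 and 14.8 CPM in mock roots, which overlap (log2 fold change 0.35, SE 0.157, adjusted p = 0.179).

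Most immune genes tested rose and none fell. Of 21 tested 16 rose and 0 fell, at a median log2 fold change of 0.91, and leaving out 1 library left 15 to 17 called higher. SARD1 and CBP60G are related transcription factors that induce salicylate synthesis. SARD1 had 2.19, 2.26 and 2.86 CPM in isoxaben roots and 0.345, 0.2 and 0.296 CPM in mock roots (log2 fold change 3.09, SE 0.387, adjusted p = 1.11e-06), and CBP60G showed a log2 difference of 2.84 (SE 0.556, adjusted p = 0.0011). EDS16, the isochorismate synthase that makes salicylate, was not called, with 11.3, 8.66 and 9.83 CPM in isoxaben roots and 7.43, 7.8 and 7.69 CPM in mock roots (log2 fold change 0.38, SE 0.138, adjusted p = 0.076). The salicylate-responsive genes PR1, PR2 and PR5 did not pass the filter on low counts.

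MYB51, CYP79B2, CYP81F2 and PAD3 are known for tryptophan-derived defence compounds. They were picked from the list after their values were seen. CYP71A13, another enzyme of camalexin synthesis on the list, did not pass the filter on low counts. MYB51, a regulator of indole glucosinolates, had 15.7, 16.3 and 24.1 CPM in isoxaben roots and 4.04, 4.5 and 4.54 CPM in mock roots (log2 fold change 2.10, SE 0.144, adjusted p = 2.79e-11). CYP79B2, the entry enzyme, had 236, 245 and 206 CPM in isoxaben roots and 168, 176 and 164 CPM in mock roots (log2 fold change 0.44, SE 0.103, adjusted p = 0.0045), and CYP81F2, which modifies indole glucosinolates, showed a log2 difference of 1.45 (SE 0.197, adjusted p = 1.1e-05). PAD3, the last enzyme of camalexin synthesis, had 62.6, 66.4 and 63.3 CPM in isoxaben roots and 24.3, 26.3 and 28.1 CPM in mock roots (log2 fold change 1.29, SE 0.126, adjusted p = 8.83e-08). WRKY53 (2.09), WRKY40 (1.71), WRKY33 (1.01), the kinase gene MPK3 (0.58) and the peptide precursors PROPEP1 (0.91) and PROPEP3 (0.79) rose too. RBOHD, the NADPH oxidase of the immune burst, had a log2 fold change of 0.11 (adjusted p = 0.653).

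Ethylene synthesis genes were mostly higher, with 1 fall. Of 10 tested 7 rose and 1 fell, at a median log2 fold change of 0.57. ACS9, an ACC synthase gene like ACS11, had 1.6, 1.68 and 1.05 CPM in isoxaben roots and 0 CPM in all mock libraries, at least 9.62-fold higher against the floor of 3 counts per library (edgeR adjusted p = 1.24e-06). Its close relative ACS5 fell to 1.1, 0.529 and 0.668 CPM in isoxaben roots, against 2.81, 4.3 and 4.24 CPM in mock roots (log2 fold change -2.30, SE 0.296, adjusted p = 2.17e-06). ACS2 was called (0.82, adjusted p = 0.00855) but not without isoxaben replicate 3 (0.0608) or mock replicate 1 (0.0762).

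Jasmonate genes rose at both synthesis and feedback. Of 21 tested 10 rose and 0 fell, at a median log2 fold change of 0.52, and leaving out 1 library left 7 to 10. LOX4, a lipoxygenase of the first step, had 2.74, 2.55 and 1.76 CPM in isoxaben roots and 0.345, 0.4 and 0.345 CPM in mock roots (log2 fold change 2.67, SE 0.378, adjusted p = 7.12e-06). JAZ1, a repressor that jasmonate itself induces, had 82.4, 68.7 and 75 CPM in isoxaben roots and 42.3, 37.9 and 45.3 CPM in mock roots (log2 fold change 0.85, SE 0.077, adjusted p = 4.56e-09). JAZ10 (1.33), JAZ3 (0.48), the transcription factor MYC2 (0.64) and the synthesis genes AOC3 (0.61) and AOS (0.45) rose. JAZ6 (0.49) lost its call without isoxaben replicate 1 (0.122) or 3 (0.0773) or mock replicate 2 (0.114) or 3 (0.0705), CYP94C1 (0.77) without isoxaben replicate 1 (0.0931) or 3 (0.149) or mock replicate 2 (0.198), and OPR3 (0.25) without isoxaben replicate 1 (0.0615). With only the 6 libraries CYP94C1 (0.107) and OPR3 (0.0639) lost their calls too. CYP94C1 was also lost with only the 12 transferred libraries (0.0627) and in DESeq2. The storage-protein markers VSP1 and VSP2 had log2 fold changes of 0.73 each with overlapping groups (adjusted p = 0.266 and 0.432).

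Of 10 type-A cytokinin response regulators, which cytokinin induces and which damp its signal, 4 rose and 0 fell, at a median log2 fold change of 0.13. ARR3 had 24.5, 24.3 and 29.1 CPM in isoxaben roots and 11.6, 10.8 and 8.83 CPM in mock roots (log2 fold change 1.32, SE 0.108, adjusted p = 7.91e-10). ARR15 (1.95) and RR5 (0.56) rose, and RR17 (1.36, adjusted p = 0.042) lost its call without isoxaben replicate 1 (0.135) or 3 (0.145) or mock replicate 1 (0.167) or 2 (0.12).

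Genes of cell division showed little change. None of 10 DNA replication genes was called, at a median log2 fold change of -0.01. Of 20 mitosis genes 3 fell and 0 rose, with a median of -0.11. CYCB1;4 lost its call without isoxaben replicate 3 (0.0557), CYC3B without isoxaben replicate 1 (0.0786) or mock replicate 1 (0.107), and CDKB2;2 without isoxaben replicate 1 (0.0509) or 2 (0.123) or mock replicate 2 (0.0557) or 3 (0.153). CYCB1;1, the common marker of dividing root cells, had 17.1, 16.3 and 15.5 CPM in isoxaben roots and 17.2, 18.8 and 16.7 CPM in mock roots (log2 fold change -0.11, SE 0.0872, adjusted p = 0.514). PLT1, a regulator of the root stem cell niche, had 25.4, 24.5 and 25.1 CPM in isoxaben roots and 18.4, 18.6 and 21.9 CPM in mock roots (log2 fold change 0.35, SE 0.0807, adjusted p = 0.00309). Of 12 tissue markers 3 rose and 2 fell, at a median of 0.04: SUC2, the phloem sucrose carrier, rose (log2 fold change 0.84, adjusted p = 7.06e-05) and NAC070 of the root cap fell (-0.50, adjusted p = 0.000608). Leaving out 1 library left 2 to 3 markers called higher and 1 to 2 called lower. The marker calls other than PLT1, SUC2 and NAC070 were each lost in several of these fits. Of 6 lateral root initiation genes 1 fell and 0 rose, at a median of 0.06; the gene was GATA23, which marks founder cells, and its call was lost without mock replicate 2 (0.0508).

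Nitrate response genes were mostly close to 0. Of 27 tested 2 rose and 1 fell, at a median log2 fold change of -0.10. The nitrate reductase gene NIA1 had 1333, 1257 and 1143 CPM in isoxaben roots and 1217, 1487 and 1477 CPM in mock roots (log2 fold change -0.16, SE 0.173, adjusted p = 0.662). LBD39, a repressor of nitrate-induced genes and called under every alternative, had 71.4, 80.8 and 78.3 CPM in isoxaben roots and 57, 58.1 and 51.5 CPM in mock roots (log2 fold change 0.47, SE 0.0698, adjusted p = 1.53e-05). In the long-term roots at 60 mM 19 of the 27 were lower, with a median of -0.56, and the difference between exposures was called for 12 in that direction.

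Osmotic and abscisic acid response genes fell or were not called. Of 16 tested 5 fell and 0 rose, at a median log2 fold change of -0.17. Besides P5CS1, the dehydrins COR47 and ERD10 fell by 0.43 each on the log2 scale (adjusted p = 0.00151 and 0.00355), and RD26, a NAC factor induced by dehydration, fell by 0.53 (adjusted p = 0.00134). KIN1 was called as well (adjusted p = 0.0368) but not without isoxaben replicate 1 (0.153) or 2 (0.0694) or mock replicate 1 (0.114) or 2 (0.163).

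Aquaporins, the water channels of plasma membrane and tonoplast, changed in 11 of 19 genes, 4 up and 7 down, at a median log2 fold change of -0.15. The tonoplast gene DELTA-TIP had 195, 136 and 160 CPM in isoxaben roots and 94.3, 91.2 and 88.2 CPM in mock roots (log2 fold change 0.84, SE 0.108, adjusted p = 4.98e-06). GAMMA-TIP, another tonoplast channel, had 762, 629 and 695 CPM in isoxaben roots and 949, 1118 and 982 CPM in mock roots (log2 fold change -0.55, SE 0.0938, adjusted p = 0.000113). PIP3, a plasma membrane channel, had 417, 338 and 338 CPM in isoxaben roots and 527, 559 and 541 CPM in mock roots (log2 fold change -0.57, SE 0.0777, adjusted p = 3.6e-06).

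The same transfer at 6 mM KNO3 gave a much smaller response, and the difference was tested as an interaction in the common fit. The call held for 195 genes at 6 mM (0.949%), of which 129 rose (0.628%) and 66 fell (0.321%). The isoxaben effect differed between 60 and 6 mM in 720 genes (3.50%), higher at 60 mM in 439 (2.14%) and lower in 281 (1.37%). With a difference of at least 1 on the log2 scale these counts were 198 (0.964%) and 89 (0.433%). In 697 of the 720 the effect was larger in size at 60 mM, and 688 were also called in the 60 mM comparison, whose 6 libraries the interaction shares.

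The Casparian strip genes split here. CASP1 averaged 186 ± 18.2 CPM in isoxaben roots and 148 ± 11.1 CPM in mock roots at 6 mM (SD, n = 3 each; log2 fold change 0.32, edgeR adjusted p = 0.457), and the difference between KNO3 levels was -1.36 (edgeR adjusted p = 0.000544). CASP2, CASP4 and ESB1 likewise had log2 fold changes of 0.20, 0.27 and 0.19 at 6 mM and were called lower in the interaction, as were 5 of the 9 genes in all. CASP5 was the exception, with 2.1 ± 0.145 CPM in isoxaben roots and 6.63 ± 1.41 CPM in mock roots at 6 mM (SD, n = 3 each; log2 fold change -1.66, edgeR adjusted p = 0.000134) and an interaction of -0.32 (edgeR adjusted p = 0.765). The PER64 interaction of -0.87 did not pass (edgeR adjusted p = 0.086).

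Immune genes were called higher in the interaction in 10 of 21 cases. Of the 39 peroxidases 10 were called higher in it and 2, AT3G01190 and AT2G18980, lower. SARD1 had a log2 fold change of 0.05 at 6 mM (adjusted p = 0.993) and an interaction of 3.05 (adjusted p = 0.00781), and PAD3 one of 0.35 at 6 mM (adjusted p = 0.385) and an interaction of 0.94 (adjusted p = 0.004). Among the XTH genes 4 were called higher and 6 lower. XTH13, XTH12 and XTH20 rose at 6 mM too, by 1.47, 0.95 and 0.70 on the log2 scale, with interactions of 0.35, 0.38 and 0.04 that did not pass (adjusted p = 0.57, 0.488 and 0.955). Of the 29 root hair genes 6 rose at 6 mM, among them PRP1 by 2.01 (adjusted p = 0.00735), and 1, RSL2, fell (log2 fold change -0.86, adjusted p = 0.00383). Of the 29, 1, RSL4, was called in the interaction (0.85, adjusted p = 0.00559). A missed threshold does not show that the effects were equal.

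The smallest interaction p-values belonged to AT5G24070, AT5G64110, AT1G14960, AT4G16670 and AT3G54150. AT1G14960, annotated as a polyketide cyclase-like lipid transport protein, had 104, 98 and 90.5 CPM in isoxaben roots and 14.3, 13.3 and 11 CPM in mock roots at 60 mM (log2 fold change 2.92, SE 0.116). At 6 mM it averaged 45.9 ± 5.98 CPM in isoxaben roots and 22.6 ± 1.19 CPM in mock roots (SD, n = 3 each; log2 fold change 1.02), so it rose at both levels and more at 60 mM (interaction 1.90, edgeR adjusted p = 1.78e-07). AT4G16670, annotated as an auxin canalization protein, had 23.1, 22.7 and 25.4 CPM in isoxaben roots and 9.16, 8.5 and 9.22 CPM in mock roots at 60 mM. At 6 mM it averaged 8.84 ± 0.819 CPM in isoxaben roots and 9.2 ± 0.63 CPM in mock roots (SD, n = 3 each; interaction 1.46, edgeR adjusted p = 1.89e-07); it overlaps a gene on the opposite strand. AT3G54150, annotated as a methyltransferase, averaged 11.1 ± 1.33 CPM in isoxaben roots and 1.17 ± 0.566 CPM in mock roots at 60 mM, and 1.23 ± 0.176 CPM in isoxaben roots and 1.5 ± 0.353 CPM in mock roots at 6 mM (SD, n = 3 each; interaction 3.53, edgeR adjusted p = 3.76e-07).

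**Figure D5:**
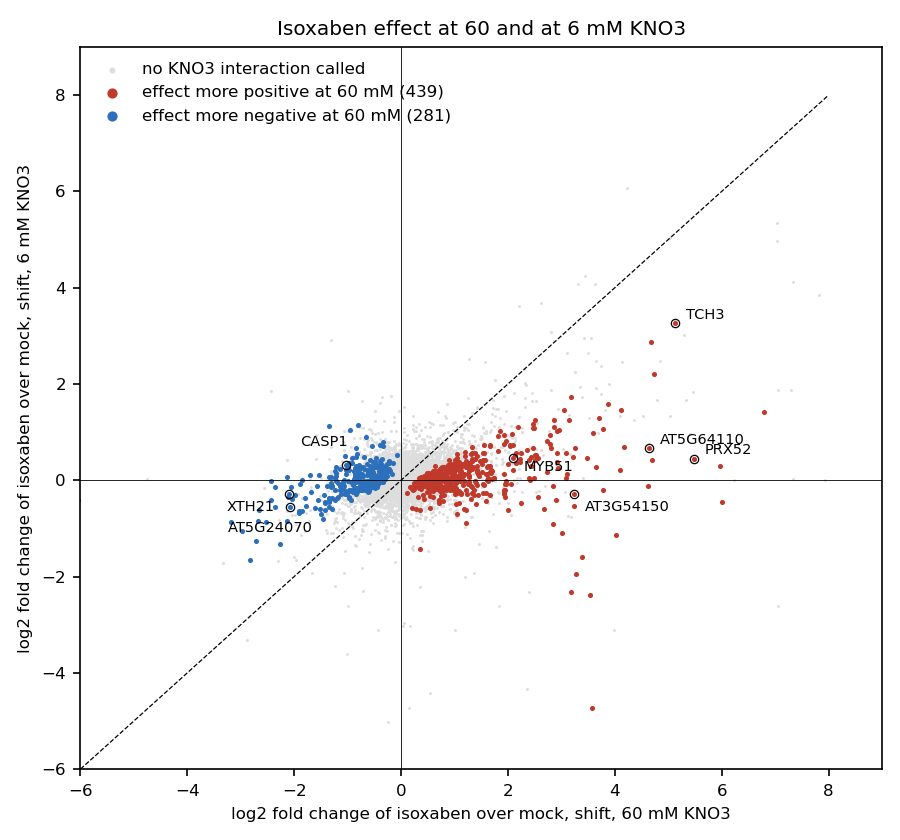
Log2 fold change of isoxaben over mock after the day-5 transfer at 60 mM KNO3 (horizontal axis) and at 6 mM KNO3 (vertical axis) for all genes tested, with the 720 genes of the interaction coloured and 2 genes outside the drawn range. Most coloured genes lie near 0 at 6 mM and away from 0 at 60 mM, 439 with the effect higher at 60 mM and 281 with it lower.

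Against long-term growth on isoxaben at 60 mM KNO3, where 6548 genes were called (31.9%, with 16.0% higher and 15.8% lower), the effect of 1 day differed in 2370 genes (11.5%), with 1204 more positive (5.86%) and 1166 more negative (5.68%) after 1 day; scaled by library size alone the split was 1565 to 940. At least 1 on the log2 scale separated 371 (1.81%) and 422 (2.05%). Of the 2659 genes called after 1 day, 719 were among these. In 418 of the 719 the sign was the same and the long-term effect larger, in 101 the sign was the same and the 1-day effect larger, and in 200 the signs were opposite. The remaining 1651 were not called after 1 day. The mock roots of the 2 exposures differed in handling as well as in age of treatment, since the long-term plants were not transferred, and each effect is taken against its own mock.

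SP1L5, a small microtubule-associated protein of the SPIRAL1 family, fell to 10.9, 11.3 and 10.3 CPM after 1 day, against 15.9, 15.6 and 15.6 CPM in mock roots (log2 fold change -0.53, SE 0.0865, adjusted p = 4.96e-05). In long-term roots it fell by 4.70 on the log2 scale, to 0.586 ± 0.124 CPM in isoxaben roots, against 15.5 ± 1.41 CPM in mock roots (SD, n = 3 each), and the difference of 4.17 had the smallest p of this interaction (edgeR adjusted p = 5.29e-15). ACS5, with -2.30 after 1 day, had a long-term log2 fold change of 0.49 (adjusted p = 0.0819), and the difference was called (adjusted p = 8.99e-06). P5CS1 fell by 0.93 after 1 day and by 0.40 long-term (adjusted p of the difference 0.0014). For CASP1, with -1.04 after 1 day and -1.13 long-term, no difference was detected (adjusted p = 0.852).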

How the data were processed

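Root RNA of 24 Arabidopsis libraries (8 groups of 3) was polyadenylation-selected and sequenced on DNBSEQ, per the labels' protocols. The authors deposited raw counts per gene; reads were aligned with STAR 2.7.9a to TAIR10, and DESeq2 1.32.0 was used, per the submitters' processing notes. Annotation, trimming, strand setting and treatment of reads with several matches are not given in the sources used here. The authors' normalised table was not used.

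Groups came from the sample titles. Raw counts were fitted in edgeR 4.0.16 (R 4.3.3, limma 3.58.1) with filterByExpr, TMM scaling, 1 mean per group over all 24 libraries, robust glmQLFit and glmQLFTest (16 residual degrees of freedom; common biological coefficient of variation 7.66%). Genes tested held 99.96% of counts. Benjamini-Hochberg adjustment ran over all 20546 genes, with a threshold of 0.05. SE is the absolute log2 fold change over the root of F, an approximation. Log2 fold changes use a prior count of 0.125. Interactions are differences between such contrasts. Depth was about equal across the 6 libraries. On simulated counts for this comparison, 78% of 50 genes changed 1.5-fold and 92% of 50 changed 2-fold were recovered. Of the genes left unchanged, 10 were called. The changed genes were drawn above a minimum mock level, so these rates do not cover the genes scarcest in mock roots.

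Named genes were the 15 largest rises and falls, taken from calls that reach 5 CPM on average in isoxaben or mock roots and whose ranges do not overlap, the 5 largest CPM differences and the 5 smallest p each way, the 5 smallest interaction p, and any member of the 22 lists. Members and lists were chosen with earlier results of these data known. Symbols, product names, opposite-strand overlap and recurring 50-base exon windows came from the RefSeq annotation of assembly TAIR10.1, joined by locus identifier. Replicate pairs in the 2 groups differed beyond counting noise (chi-square per degree of freedom 5.63 to 10.9), so none was counted as a repeat. Alternatives were other scalings, no low-count filter, a replicate block, fits of only the 6 or 12 libraries, DESeq2 1.42.0, a minimum fold, and leaving out each library. Results for 2 list genes are not reported here; they are included in the list counts and medians.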

Additional observations from a re-analysis of the deposited data

Results flagged for a closer look

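The effect of 1 day of isoxaben at 60 mM KNO3 differed from that at 6 mM in 720 genes (3.50% of those tested) and from that of long-term isoxaben at 60 mM in 2370 genes (11.5%), each tested by an interaction term in edgeR. Both counts are listed because the effects of the same treatment differed between groups.

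For the same reason, 5 genes stand out between KNO3 levels, with the effect at 60 mM minus that at 6 mM given on the log2 scale. The peroxidase gene AT5G64110 differed by 3.98 (SE 0.34), AT3G54150 by 3.53 (SE 0.34), AT1G14960 by 1.90 (SE 0.16) and AT4G16670 by 1.46 (SE 0.14), all higher at 60 mM. The peroxidase-family gene AT5G24070 differed by -1.52 (SE 0.13). Its edgeR adjusted p was 5.17e-08, and those of the others were 5.67e-08 (AT5G64110) to 3.76e-07 (AT3G54150). AT5G64110 averaged 6.75 ± 0.732 CPM in isoxaben roots and 0.264 ± 0.0277 CPM in mock roots at 60 mM, and 3.37 ± 0.62 CPM in isoxaben roots and 2.13 ± 0.11 CPM in mock roots at 6 mM (SD, n = 3 each), so its mock level differed between the media too.

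Between exposures at 60 mM, with the 1-day effect minus the long-term effect on the log2 scale, SP1L5 differed by 4.17, the carboxypeptidase gene scpl31 by 2.07, AT2G47200 by 1.98, AT3G53980 by 1.80 and NAC080 by 1.51. Their edgeR adjusted p ran from 5.29e-15 (SP1L5) to 3.84e-10 (NAC080). After 1 day the log2 fold changes of these 5 genes lay between -0.53 (SP1L5) and 0.32 (AT2G47200). For example, scpl31 averaged 108 ± 9.25 CPM in isoxaben roots and 131 ± 5 CPM in mock roots (SD, n = 3 each). In long-term roots it averaged 21.7 ± 2.62 CPM with isoxaben and 110 ± 14.7 CPM with mock (SD, n = 3 each). All 10 interaction calls held under every alternative tried.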

How the results depend on the processing

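A required change of at least 1 on the log2 scale reduced the genes called to 671 in the 60 mM comparison, 287 in the KNO3 interaction and 793 in the exposure interaction. The other settings kept the counts within 1.5 times: 2078 (only the 6 libraries) to 2649 (relative log expression scaling), 559 (only the 12 transferred libraries) to 830 (DESeq2) and 2190 (no low-count filter) to 2505 (library size only). Leaving out 1 library gave 1992 to 2468, 509 to 778 and 1914 to 2476. Scaling by library size only gave 1565 higher and 940 lower in the exposure interaction, against 1204 and 1166. Replicate numbers were not treated as pairs in the main fit. Deviations of same-numbered libraries correlated at -0.212, 0.177 and -0.0389, and the highest value was 0.367, for isoxaben replicate 1 and mock replicate 3. With 3 libraries a group these values cannot decide whether the numbers mark pairs. A replicate block gave 2640 (2574 shared), 739 and 2355 calls. List medians changed sign for suberin (0.03 without isoxaben replicate 2, 0.06 without mock replicate 3; -0.17 to 0.06 over left-out libraries), photosynthesis (0.03 without isoxaben replicate 1, 0.21 without mock replicate 1; -0.30 to 0.21) and lateral root genes (-0.04 without mock replicate 2; -0.04 to 0.11); the cause was not tested. Of 179 called genes on the lists or named, 143 were called under every alternative and 36 were lost under at least 1. Several of the 36 were lost in other fits besides the left-out libraries named above, among them the fit of only the 6 libraries. With 3 libraries a group, genes under about 0.15 CPM cannot be told from 0.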

Other observations

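Families by annotated product name were formed over all expressed genes with no gene picked by hand. The families named here were chosen with their counts known, and some of their members were described above. Families with similar shares were left out of that choice. Examples are the RmlC-like cupins, with 5 higher and 0 lower of 18, and the UPF0497 family, with 2 higher and 10 lower of 36. Among families with at least 10 tested genes, set beside 7.35% higher and 5.59% lower over all genes, the lipid-transfer protein and 2S albumin superfamily had 4 higher and 20 lower of 49, pectin lyase-like proteins 3 higher and 19 lower of 53, and MtN21/EamA-like transporters 1 higher and 13 lower of 37. Dirigent-like genes were divided, with 4 higher, DIR5 among them, and 7 lower, ESB1 among them, of 18. TIR-NBS-LRR disease resistance proteins had 11 higher and 2 lower of 54, EF-hand calcium-binding proteins 9 and 2 of 36, BAHD-type acyltransferases (annotated HXXXD-type) 9 and 2 of 41, TRAF-like proteins 7 and 0 of 22, and the auxin-conjugating GH3 family 5 and 1 of 13. These are counts without a test, and members of a family can share reads.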
